A study of Mus musculus with 61 samples.

Results

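The 56 translation initiation factor genes described here are the rows of the count table whose symbol begins with Eif and a digit from 1 to 6, with pseudogene rows left out, from 23927 gene rows in all. Each library is 1 single cell taken from the ovary of wild-type CD-1 mice, an outbred stock, at postnatal day 5. The ovaries were collected 6 hours after an intraperitoneal injection. The 4 groups were 16 control oocytes and 16 control granulosa cells, after solvent, and 16 doxorubicin oocytes and 13 doxorubicin granulosa cells, after the DNA-damaging anti-cancer drug doxorubicin. The amount injected is given as 10 mg/kb, a unit that cannot be read as a dose, and is left uncertain. Oocytes are the female germ cells and granulosa cells are the somatic cells that surround them in the follicle. The series is titled for JNK in oocytes and for ovarian insufficiency after DNA-damaging drugs. The labels tie no cell to an animal. Cells of a group may therefore share an animal, each group stands as a single sample, and no difference below was tested.

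Initiation factors bring the small ribosomal subunit, the initiator tRNA and the mRNA together at a start codon. eIF2 carries the initiator tRNA, eIF2B recharges eIF2 with GTP, and kinases that phosphorylate the alpha subunit of eIF2 under stress block that recharging and lower translation. eIF4E binds the cap of the mRNA, and proteins that hold eIF4E keep mRNAs silent, which oocytes are known for because they store mRNAs for later use.

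Levels are given as CPM, the reads of a gene per 1000000 reads of all genes, either of the reads summed over a group or of a single library. Group totals lay between 143056499 and 195716771 reads, and library totals between 6834594 and 31262609. At these depths 3 reads in a whole group correspond to 0.0153 to 0.021 CPM. Log2 ratios compare summed CPM. The range in brackets after a ratio is the lowest and highest value on leaving out each library in turn. Intervals of 95% cover counting error only, and PCR reads without molecular identifiers are not independent molecules. A gene was called higher or lower when its summed CPM differed at least 2-fold and reached 5 CPM in either group. Of the 56 genes, 52 reached 5 CPM in some group. The other 4 were Eif4a3l1 and Eif4a3l2, intronless relatives of an eIF4A helicase listed at no more than 0.0562 CPM, the cap-binding paralog Eif4e1b, and Eif4ebp3.

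The granulosa groups did not follow their labels in every library. The summed level of 18 oocyte markers was above that of 18 granulosa markers in 6 of 16 control granulosa libraries and in 8 of 13 doxorubicin granulosa libraries. The oocyte marker sum had a median of 46292 CPM in oocytes of the control group and 33539 CPM in those given doxorubicin, against 1752 CPM in the control and 9643 CPM in the doxorubicin granulosa libraries. The granulosa marker sum ranged from 445 to 13574 CPM over the control and from 702 to 9856 CPM over the doxorubicin granulosa libraries. In oocytes its median was 71.4 CPM in the control group and 64.7 CPM after doxorubicin, with a highest value of 774 CPM and of 3185 CPM, the latter in doxorubicin oocyte 9. Of the oocyte markers, Bmp15, Oosp1 and Kit were under 1 CPM in the control granulosa group and Ddx4 and Lhx8 in the doxorubicin granulosa group. Between the granulosa groups, 16 of 16 oocyte markers past the filter were at least 2-fold higher after doxorubicin, and 5 of 9 granulosa markers were between the oocyte groups. Blood markers reached 35021 CPM in doxorubicin granulosa cell 15. The raw reads of doxorubicin oocyte 4 are stated to be lost, and its counts were kept. Granulosa libraries with more oocyte than granulosa markers are called discordant below, and calls that involve granulosa cells are given with and without them. Leaving them out keeps 10 control and 5 doxorubicin granulosa libraries.

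Promoter sequences are shown first for 4 genes on which the results below turn. Eif3b was the 1 gene past the filter called between the oocyte groups, Eif4enif1 and Eif2ak3 were higher in oocytes, and Eif1ax is the counterpart of Eif1a, which was higher in granulosa cells. Each run is the 250 bases before a RefSeq transcript start (GRCm38.p6), 5′ to 3′ on the coding strand, with matches on either strand to the E-box CACGTG, the CCAAT box (CCAAT), the GC box (GGGCGG) and the AP-1 site (TGACTCA or TGAGTCA) in capitals. Overlapping GC boxes are merged into 1 capital run. A p53 half-site was also searched by its name.
Eif3b, chr5:140419055-140419304, plus strand: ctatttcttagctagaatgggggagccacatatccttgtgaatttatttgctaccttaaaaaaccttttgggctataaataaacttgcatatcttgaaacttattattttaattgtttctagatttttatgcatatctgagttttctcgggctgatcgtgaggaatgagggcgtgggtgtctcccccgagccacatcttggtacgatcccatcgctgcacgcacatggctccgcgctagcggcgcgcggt
Eif4enif1, chr11:3202103-3202352, plus strand: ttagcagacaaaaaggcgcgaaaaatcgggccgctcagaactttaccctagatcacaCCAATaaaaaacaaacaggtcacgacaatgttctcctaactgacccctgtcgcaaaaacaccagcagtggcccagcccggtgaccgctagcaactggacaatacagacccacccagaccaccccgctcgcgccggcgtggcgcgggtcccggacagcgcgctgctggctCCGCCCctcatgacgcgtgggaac
Eif2ak3, chr6:70844265-70844514, plus strand: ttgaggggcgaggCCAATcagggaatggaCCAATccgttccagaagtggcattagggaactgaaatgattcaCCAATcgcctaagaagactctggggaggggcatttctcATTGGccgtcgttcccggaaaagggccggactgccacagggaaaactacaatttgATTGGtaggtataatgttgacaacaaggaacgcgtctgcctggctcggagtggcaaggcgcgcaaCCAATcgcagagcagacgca
Eif1ax, chrX:159371928-159372177, plus strand: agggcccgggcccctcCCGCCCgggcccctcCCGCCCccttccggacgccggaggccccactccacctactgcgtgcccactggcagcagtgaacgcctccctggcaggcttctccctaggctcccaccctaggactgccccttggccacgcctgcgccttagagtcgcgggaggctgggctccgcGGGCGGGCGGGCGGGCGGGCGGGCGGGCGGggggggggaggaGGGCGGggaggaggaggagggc
The Eif3b window held none of these letters, with a GC content of 44.8%. The Eif4enif1 window, the most upstream of 4 starts listed for that gene, held a CCAAT box and a GC box. The Eif2ak3 window held 6 CCAAT matches and the Eif1ax window 10 GC boxes, with a GC content of 78.8%. RefSeq entries were found for 43 of the 56 genes, with 56 starts. A GC box lay in 66.1% of these windows, against 32.7% of all 32851 promoter windows of the same length, and an E-box in 19.6% against 6.02%. CCAAT was in 26.8% against 33.8%, the AP-1 site in 3.57% against 4.46%, and the p53 half-site in 1.79% against 7.13%. A match is a run of letters and not a bound site.

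As a group, the initiation factors took up more of the reads in oocytes than in granulosa cells. The summed level of the 56 genes was lowest at 12182, 13670 in the median and highest at 14794 CPM in control oocytes. In doxorubicin oocytes these values were 13605, 15070 and 17007 CPM, and 11 of 16 libraries lay above the highest control oocyte. Control granulosa libraries ranged from 8455 to 15089 CPM with a median of 11925, and doxorubicin granulosa libraries from 10033 to 17409 with a median of 11346, so that both overlapped the oocytes. Without Eif3b, 8 of 16 doxorubicin oocytes still lay above the highest control.

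**Figure D1:**
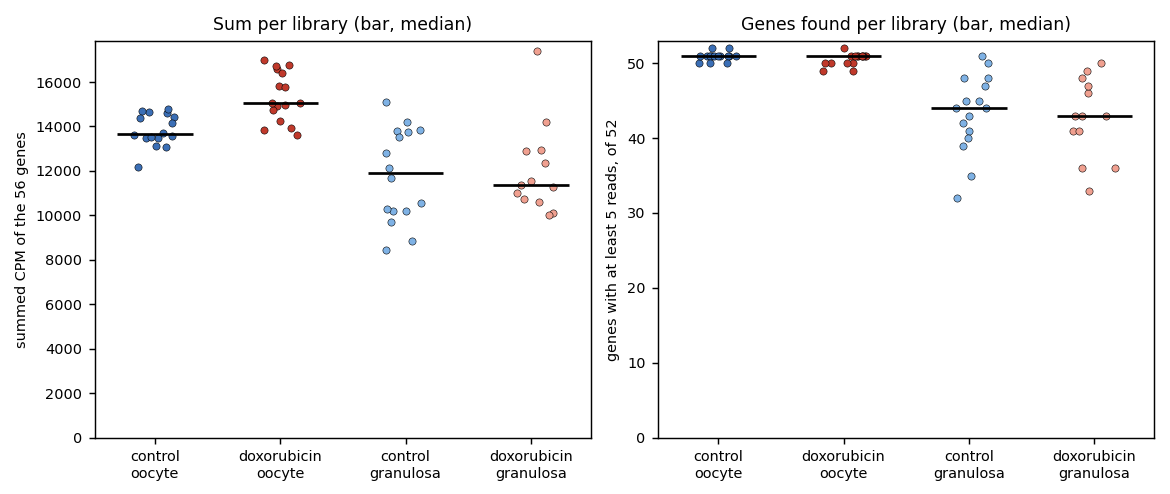
Left, summed CPM of the 56 initiation factor genes in each library, by group. Right, the number of the 52 expressed genes with at least 5 reads in each library. Each point is 1 cell and the bars are medians. The doxorubicin oocytes sit highest on the left with a median of 15070 CPM, and on the right the oocyte medians are 51 genes against 44 and 43 in the granulosa groups.

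Oocytes also held these transcripts more evenly. Of the 52 genes, a median of 51 had at least 5 reads in a control oocyte, between 50 and 52, and 51 in a doxorubicin oocyte, between 49 and 52. The median was 44 genes in control granulosa cells, between 32 and 51, and 43 in doxorubicin granulosa cells, between 33 and 50. Every control oocyte held 50 of the genes and every doxorubicin oocyte 47, while 21 were in every control granulosa library and 22 in every doxorubicin one. Over all expressed genes, 58.0% were in every control oocyte and 7.42% in every control granulosa library, and 81.6% and 48.0% of the pairs of gene and library held at least 5 reads. By these pairs the gap between the cell types, in percentage points, was wider over all genes than over the initiation factors. By genes found in every library it was not. After thinning each library to 1000000 reads, gene and library pairs with at least 5 reads made up 96.4% in control oocytes and 79.2% in control granulosa cells, against 98% and 83.4% unthinned. The median coefficient of variation between libraries was 0.23 and 0.28 in control and doxorubicin oocytes, and 0.76 and 0.87 in control and doxorubicin granulosa cells. Over all expressed genes these medians were 0.45, 0.53, 1.53 and 1.51, so genes in general spread more widely between the granulosa libraries.

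The comparison of untreated oocytes with untreated granulosa cells called 11 of the 52 genes higher in oocytes and 6 lower. Over all 12371 genes past the filter, 29.0% were higher and 31.3% lower, so both shares were under the background. Of the calls, 9 higher and 4 lower ones held on leaving out any 1 library, against 26.8% and 22.6% of all genes. The median log2 ratio was 0.31, against −0.03 for all genes. The calls after doxorubicin, from separate libraries, were 14 higher and 4 lower of 52, where 27.6% of all genes were higher and 28.2% lower. The median ratio there was 0.36 against 0.02, and 13 higher and 3 lower calls held on leaving out any 1 library, against 24.8% and 17.8% of all genes. In the plot of oocyte over granulosa ratios, Eif4enif1, Eif2ak1, Eif2ak3, Eif2s3x, Eif2b1, Eif2b5 and Eif3g were called higher in oocytes both times, which is 63.6% of the control list and 50% of the doxorubicin list. Over all genes the same shares were 60.3% and 63.1%. Eif1a and Eif2ak2 were called lower both times, 33.3% and 50% of the lists, against 59.5% and 65.6% over all genes.

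Without the discordant libraries, most of these calls kept their direction at 2-fold. Among the controls the ratios were 2.78 for Eif2ak3, 2.21 for Eif1b, 1.63 for Eif2b1, 1.60 for Eif5a2, 1.5 for Eif2s3x, 1.43 for Eif2ak1, 1.36 for Eif6, 1.36 for Eif2b5 and 1.21 for Eif4b. On the lower side Eif2ak2 was at −4.55, Eif1a at −2.61, Eif4ebp2 at −1.54 and Eif4h at −1.36, while Eif3i and Eif3a came to −0.95 and ended under 2-fold. After doxorubicin Eif2b1 was at 3.15, Eif1ad at 2.87, Eif2b5 at 2.69, Eif2b4 at 2.43, Eif2ak1 at 2.26, Eif2b3 at 1.77 and Eif2s3x at 1.42. Eif3g was at 1.84, Eif4enif1 at 1.29 and Eif3b at 1.27, and the bound for Eif2ak3 was 8.22. Eif2ak2, Eif1a and Eif2ak4 stayed lower at −3.26, −3.20 and −2.44. Eif5, Eif4g3, Eif4e and Eif3f ended under 2-fold, at 0.88, 0.86, 0.81 and −0.90.

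**Figure D2:**
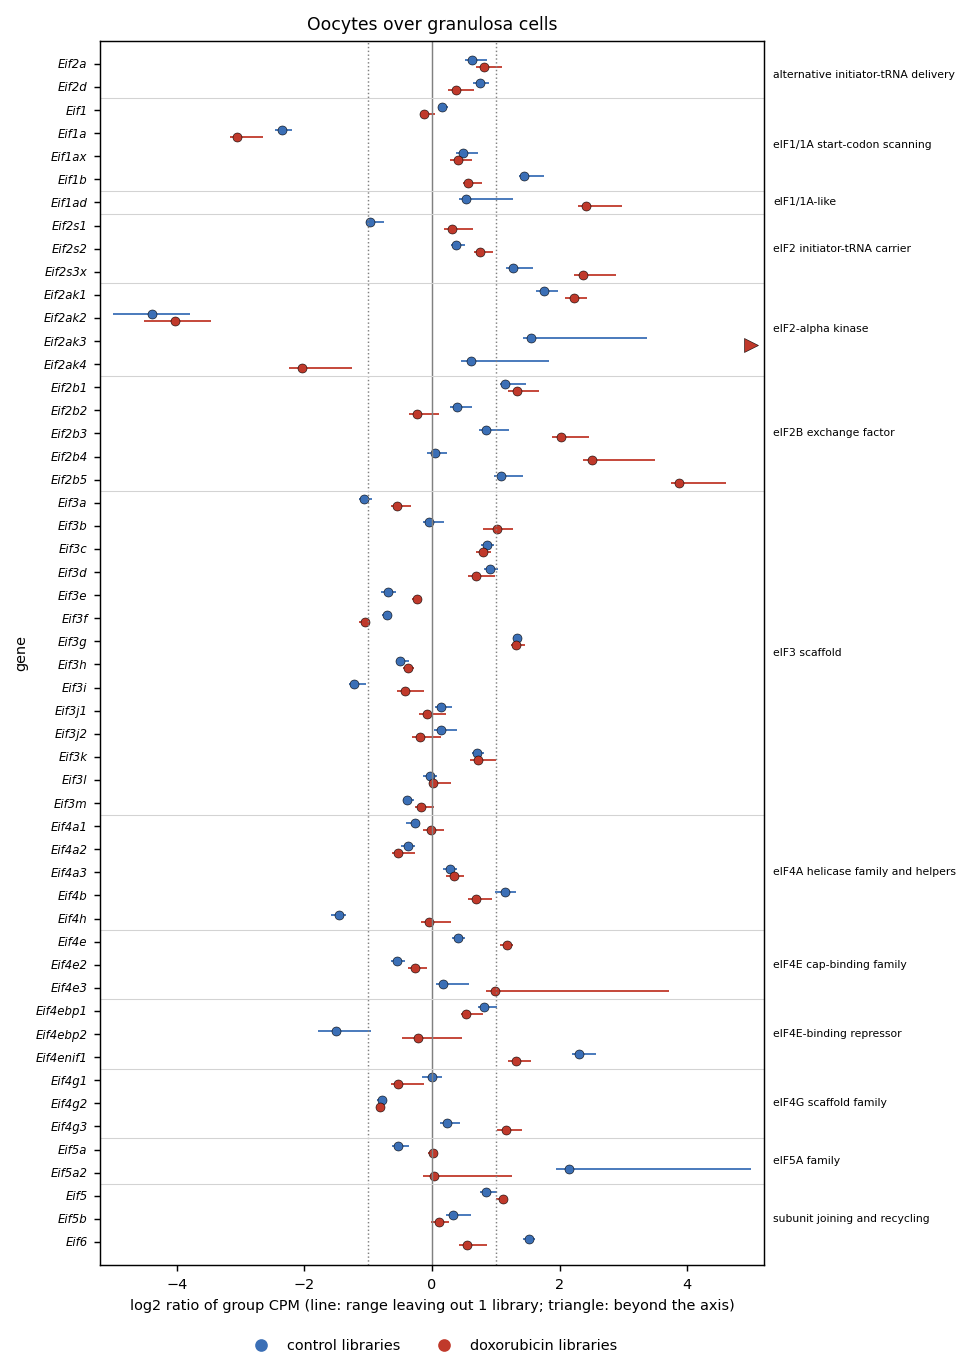
Log2 ratio of summed CPM in oocytes over granulosa cells for the 52 expressed genes, ordered by role, with controls in blue and doxorubicin in red. Lines span the values on leaving out each library, cut at the axis limits, and a triangle marks a value beyond the axis. Eif4enif1 stands at 2.30 and 1.32 and Eif1a at −2.36 and −3.05.

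Among the genes whose products hold eIF4E, Eif4enif1 was the 1 called higher in oocytes in both comparisons. It encodes 4E-T, which binds eIF4E, silences mRNAs and is a component of ribonucleoprotein granules (chr11:3202392-3244588, plus strand, GENCODE M21). Its level in control oocytes was lowest at 176, 268 in the median and highest at 440 CPM. Control granulosa cells ran from 0 through a median of 22.5 to 243 CPM, with at least 5 reads in 11 of 16 libraries. All control oocytes lay above the granulosa median, and 11 of the 16 lay above every control granulosa library. The log2 ratio was 2.30 (2.19 to 2.57). It was 2.05 without the discordant libraries. After doxorubicin the oocytes ranged from 172 to 377 CPM around a median of 294. The doxorubicin granulosa cells ranged from 0.219 to 318 around 99.1 CPM, and the log2 ratio was 1.32 (1.19 to 1.55).

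The other repressors differed in level. Eif4ebp1, an eIF4E-binding protein controlled by mTOR, stood at 227 CPM in control oocytes (160 to 335 over libraries) and at 129 CPM in control granulosa cells (0.0882 to 360). Eif4ebp2 was low in both cell types, at 6.19 CPM in control oocytes and 17.5 CPM in control granulosa cells, a log2 ratio of −1.50. A single library, control granulosa cell 16 at 90.3 CPM, held 36.7% of the granulosa reads, and without it the ratio was −0.95. Between the medians of log2(CPM + 1) over cells the difference was 2.52, in the opposite direction. Eif4ebp3 was at 2.55 CPM or less in every group, and 65.5% of its 50-base windows are shared with other genes.

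The cap-binding proteins themselves differed less between the cell types. Eif4e ranged from 273 to 429 CPM in control oocytes around a median of 333. The control granulosa cells ranged from 1.02 to 511 CPM around 224. The ranges overlapped, and the log2 ratio was 0.41. After doxorubicin it was called higher in oocytes, at 1.17 (1.07 to 1.28). Eif4e was above Eif4e2, which encodes the 4EHP protein that binds the cap without starting translation, in 16 of 16 control oocytes and 16 of 16 doxorubicin oocytes, without division by length. The same order held in 10 of 16 control granulosa and 10 of 13 doxorubicin granulosa libraries. Per kilobase of the longest transcript, doxorubicin oocytes held Eif4e at 89.0, Eif4e2 at 29.9 and Eif4e3 at 11.8 CPM. The oocyte paralog Eif4e1b was at 0.40 CPM per kilobase there. Eif4e1b had 53 reads over all control oocytes and 153 over all doxorubicin oocytes, with at least 5 reads in 2 and 4 of 16 libraries. It had no read in control granulosa cells and 103 reads in doxorubicin granulosa cells, of which 2 libraries held at least 5. Its highest library, doxorubicin granulosa cell 10, was a discordant one and reached 9.08 CPM. Without discordant libraries Eif4e1b was at 0 CPM in doxorubicin granulosa cells. So this paralog, known from growing and mature oocytes, was under 1 CPM in all 4 groups.

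**Figure D3:**
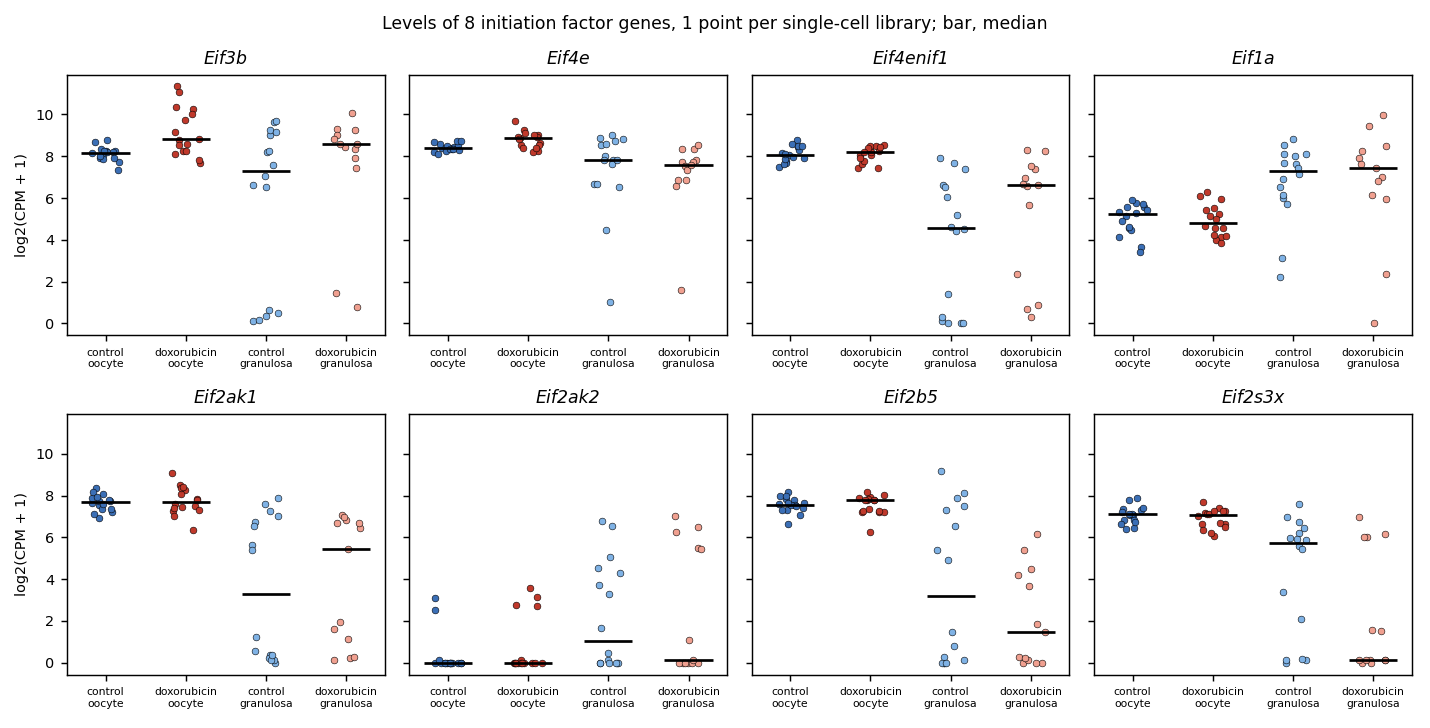
Level of 8 genes in each library, as log2(CPM + 1), by group, with 1 point per cell and bars at the medians. Eif4enif1, Eif2ak1 and Eif2s3x lie higher in the oocyte groups and Eif1a in the granulosa groups. Eif3b spreads upward in doxorubicin oocytes, and Eif2b5 lies low in doxorubicin granulosa cells with a median of 1.81 CPM.

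The 4 kinases of eIF2 alpha differed between the cell types in opposite directions. Eif2ak1 encodes the heme-regulated kinase HRI. It ranged from 122 to 327 CPM in control oocytes around a median of 205, and from 0 to 233 in control granulosa cells around 21.3. The ratio was 1.75 on the log2 scale (1.64 to 1.98), and after doxorubicin it was 2.22 (2.08 at the lowest). Its oocyte libraries were high throughout, while 10 of 16 control and 10 of 13 doxorubicin granulosa libraries held at least 5 reads.

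Eif2ak2, which encodes the RNA-activated and interferon-induced kinase PKR, had the opposite pattern. Of 16 control oocytes 2 held at least 5 reads, the median was 0 and the highest library 7.66 CPM. Of the control granulosa cells 9 of 16 did, the median was 1.27 CPM and the highest library 111. The log2 ratio was −4.39, between −5.52 without control oocyte 5 and −3.80 without control granulosa cell 5, and it was −4.03 after doxorubicin. With the cells' medians the difference shrank to −1.06 and −0.13, so it rested on the granulosa libraries that held the transcript at all.

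Eif2ak3, which encodes the endoplasmic reticulum stress kinase PERK, was in 16 of 16 control oocytes, from 1.06 to 50.2 CPM with a median of 21.6. In control granulosa cells 2 of 16 libraries held at least 5 reads (12.5%, exact 95% interval 1.55 to 38.3%), number 3 at 84.8 and number 11 at 34.6 CPM. Its log2 ratio was 1.55, and 3.37 without control granulosa cell 3. Doxorubicin granulosa cells had no read of it in 13 libraries. The exact 95% interval for the share of libraries with at least 5 reads reaches 24.7% there, which covers counting error only and is no limit on cells that express the gene. Against a floor of 3 reads in that group, doxorubicin oocytes were at least 739-fold higher, at a median of 11.4 CPM.

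Eif2ak4, which encodes the amino acid sensor GCN2, was at 17.8 CPM in the median control oocyte and 1.96 in the median control granulosa cell. The summed levels were 21.2 and 13.8 CPM. After doxorubicin it was called lower in oocytes, at −2.04, and −1.25 without doxorubicin granulosa cell 1. Between the cells' medians the difference was 4.46, in the opposite direction. Per kilobase of the longest transcript, control oocytes held Eif2ak1 at 47.3, Eif2ak3 at 5.14, Eif2ak4 at 4.0 and Eif2ak2 at 0.173 CPM. In control granulosa cells the order was Eif2ak1 at 14.1, Eif2ak2 at 3.62, Eif2ak4 at 2.61 and Eif2ak3 at 1.76 CPM per kilobase. Eif2ak1 was thus the kinase with the most reads per length in control cells of both types, with the median transcript length as well. The order of Eif2ak3 and Eif2ak4 in control granulosa cells turned with that length. In doxorubicin granulosa cells Eif2ak1 was not the highest. There Eif2ak4 lay above Eif2ak1 with the longest transcript, and Eif2ak2 lay above Eif2ak1 with the median transcript length.

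Among the start-codon factors, the copies of eIF1A stood in a different order in the 2 cell types. Eif1a and Eif1ax encode closely related forms of eIF1A, which promotes scanning of the mRNA. In the annotation they are separable by sequence, since Eif1ax shares 0% of its 50-base windows with other genes and Eif1a 4.05%. Eif1a was between 9.68 and 59.4 CPM in control oocytes with a median of 36.2, and between 3.66 and 454 CPM in control granulosa cells with a median of 156. Its log2 ratio was −2.36 (−2.46 to −2.20), and −3.05 (−3.16 to −2.64) after doxorubicin. Eif1ax was at 165 CPM in the median control oocyte and 97.6 in the median control granulosa cell. Eif1a was below Eif1ax in 16 of 16 control and 16 of 16 doxorubicin oocytes, while it was above in 10 of 16 control and 7 of 13 doxorubicin granulosa libraries, without division by length. Eif1, which guards start-codon choice, was the highest of the group per kilobase in control oocytes at 1001 CPM and in control granulosa cells at 895. Its paralog Eif1b was higher in control oocytes, with a median of 470 CPM (340 to 569) against 124 (40.3 to 670) and a log2 ratio of 1.44 (1.37 to 1.76).

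In the controls the subunits of eIF2 took another balance in each cell type. Eif2s3x, the X-linked gene of the gamma subunit that binds GTP and the initiator tRNA, ranged from 82.8 to 237 CPM in control oocytes around 136. In control granulosa cells it ranged from 0 to 192 CPM around 51.7. The log2 ratio was 1.28 (1.17 to 1.58) in controls and 2.36 (2.22 to 2.88) after doxorubicin. Eif2s1, the alpha subunit that the kinases phosphorylate, lay the other way, at 95.7 CPM in the median control oocyte and 143 in the median control granulosa cell, a log2 ratio of −0.97. Eif2s2, the beta subunit, was at 148 and 114 CPM. Eif2s1 exceeded Eif2s3x in 1 of 16 control oocytes and in 14 of 16 control granulosa libraries, without division by length. After doxorubicin it did so in 7 of 16 oocytes and in 12 of 13 granulosa libraries. There all 3 eIF2 genes, Eif2s1 included, had log2 ratios above 0 in oocytes over granulosa cells. Without the discordant libraries Eif2s1 was below 0 there, at −0.35, while Eif2s2 was at 1.00 and Eif2s3x at 1.42.

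In eIF2B, the subunit genes Eif2b1 and Eif2b5 were called higher in control oocytes. Eif2b5 encodes the catalytic subunit. It had a median of 189 CPM in control oocytes (100 to 290) and of 15.5 in control granulosa cells (0 to 578), a log2 ratio of 1.08 that was 0.97 without control granulosa cell 6. After doxorubicin the oocytes ranged from 75.1 to 291 CPM and the granulosa cells from 0 to 71.0, so the groups did not overlap, and the ratio was 3.87 (3.74 to 4.61). Over all genes 1.55% were higher and 0.193% lower in oocytes without overlap in that comparison. Without doxorubicin granulosa cell 13, its highest library, the ratio was 4.61. Eif2b3, Eif2b4 and Eif2b1 were also called higher in oocytes there, at 2.01, 2.51 and 1.33, and Eif2b4 was at 3.49 without doxorubicin granulosa cell 2.

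The 14 genes of eIF3, the large scaffold that joins the small subunit to the mRNA, had a median log2 ratio of −0.04 between control oocytes and control granulosa cells. Eif3g, an RNA-binding subunit, was called higher in oocytes. Its control oocytes ranged from 846 to 1396 CPM and its control granulosa cells from 168 to 872, so that 15 of 16 oocytes were above every granulosa library. The log2 ratio was 1.33 (1.26 to 1.40), 1.40 without the discordant libraries, and 1.32 after doxorubicin. Eif3i and Eif3a, the latter the largest core subunit, were called lower in control oocytes, at −1.23 (−1.31 to −1.03) and −1.07, and without control granulosa cell 5 the Eif3a ratio was −0.94. Eif3e was at 145 and 234 CPM. After doxorubicin Eif3b was called higher in oocytes at 1.02, and 0.79 without doxorubicin oocyte 3, and Eif3f lower at −1.05, and −0.98 without doxorubicin granulosa cell 12. The copies Eif3j1 and Eif3j2 share 54.8% and 91.8% of their 50-base windows with other genes, so their levels of 18.6 to 22.7 CPM in the 4 groups are uncertain.

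Among the helicase factors and the eIF4G scaffolds, Eif4h, a helper of the eIF4A helicase, was lower in control oocytes at a median of 112 CPM against 328, a log2 ratio of −1.46 (−1.59 to −1.35). Eif4b, the other helper, was higher at 1.15, and 0.98 without control oocyte 16. The helicase genes Eif4a1 (541 and 652 CPM) and Eif4a2 (155 and 202 CPM) and the scaffold genes Eif4g1 (173 and 174 CPM) and Eif4g3 (161 and 137 CPM) were not called in controls. After doxorubicin Eif4g3 was called higher in oocytes at 1.16. Eif4a1 exceeded Eif4a2 in every library but 1 doxorubicin granulosa cell, without division by length.

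Eif6, which keeps the ribosomal subunits apart, separated the control groups fully. Its control oocytes lay between 479 and 743 CPM around 593 and its control granulosa cells between 7.32 and 435 around 210. All 16 oocytes were above all granulosa libraries, and the log2 ratio was 1.52 (1.43 to 1.62). Over all genes 3.25% were higher and 0.453% lower in control oocytes without overlap. Eif5, which triggers GTP hydrolysis by eIF2, was at 563 CPM in the median control oocyte and 302 in the median control granulosa cell, and after doxorubicin its groups did not overlap (391 to 769 against 53.1 to 388 CPM), with a log2 ratio of 1.11. Eif5b, which joins the subunits, was at 46.9 and 37.1 CPM in the control groups. Eif5a, a factor of elongation and termination despite its name, was at 624 CPM in control oocytes and 902 in control granulosa cells. Its paralog Eif5a2 was in 16 of 16 control oocytes at 2.77 to 24.7 CPM. In control granulosa cells 2 of 16 libraries held it, and control granulosa cell 11 had 90% of the reads, so the log2 ratio of 2.14 was 5.38 without that library.

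The comparison of oocytes after doxorubicin with control oocytes called 1 of 51 genes higher, Eif3b, and none lower. Over all 11117 genes past the filter 6.31% were higher and 2.45% lower. The Eif3b call held on leaving out any 1 library, as did those of 4.19% of all genes among the higher and 1.21% among the lower. The median log2 ratio of the 51 genes was 0.09 against 0.01, and 33 were above 0. No gene of all those past the filter had oocyte groups without overlap.

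Eif3b encodes a core subunit of eIF3 with a role in placing the small subunit on the mRNA (chr5:140419328-140443360, plus strand, GENCODE M21). No other annotated exon overlaps it and no 50-base window of it recurs in another gene. Control oocytes ranged from 163 to 436 CPM around a median of 287. Doxorubicin oocytes ranged from 202 to 2602 CPM around a median of 451, and 9 of 16 lay above the highest control. The highest were doxorubicin oocyte 3 at 2602, number 4 at 2173, number 13 at 1306, number 5 at 1245 and number 10 at 1046 CPM. Numbers 7, 1, 14 and 6 followed at 847, 569, 459 and 444 CPM. The remaining 7 lay within the control range, from 202 to 385 CPM. The doxorubicin oocytes were therefore uneven, with some at control level and some several-fold above it.

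The log2 ratio of Eif3b was 1.54 (counting interval 1.52 to 1.55), a 2.90-fold difference. It ranged from 1.31 without doxorubicin oocyte 3 to 1.61 without number 2, was 1.34 without number 4, whose raw reads are lost, and was 0.65 between the cells' medians. Without oocytes that held 200 CPM or more of granulosa markers it was 1.76, and without those of granulosa or stroma markers 1.86. Of the genes past the filter, 3.45% had a ratio at least as high. Its neighbours on the chromosome stood at 0.64 (Nudt1), 0.58 (Mrm2), −0.32 (Snx8), −0.19 (Chst12) and −0.24 (Mad1l1).

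**Figure D4:**
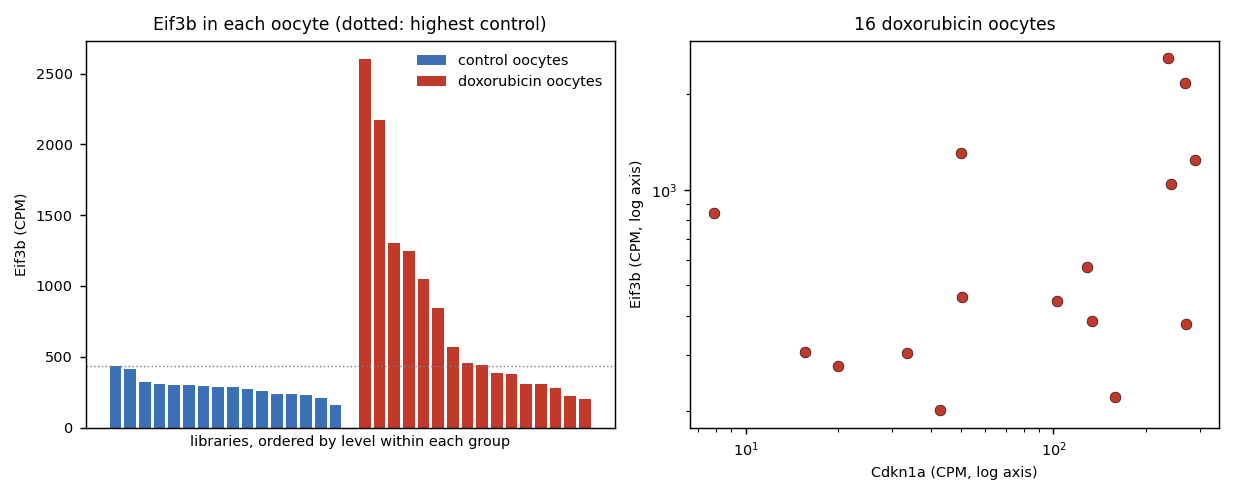
Left, Eif3b CPM in each oocyte ordered by level within its group, with the dotted line at the highest control oocyte, 436 CPM. Right, Eif3b against Cdkn1a in the 16 doxorubicin oocytes, both on logarithmic axes. The 9 tallest doxorubicin bars pass the line, and the highest bar, at 2602 CPM, is doxorubicin oocyte 3.

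Cdkn1a, the p21 inhibitor of the cell cycle and a target of p53, had a median of 16.1 CPM in control oocytes and 115 in doxorubicin oocytes. Across the 16 doxorubicin oocytes Eif3b and Cdkn1a had a Spearman rho of 0.42 and a Pearson r of 0.41 on log2(CPM + 1), and across the 16 control oocytes rho was −0.06. The rho of Eif3b in doxorubicin oocytes was 0.35 with the oocyte marker sum, −0.15 with the granulosa, −0.24 with the stroma and 0.43 with the endothelium marker sum, and −0.04 with the sum of the other initiation factors. The endothelium sum had medians of 4.56 CPM in control oocytes and 26.7 CPM in doxorubicin oocytes, and doxorubicin oocyte 3 was highest in it at 135 CPM. Of its 6 genes 2 passed the filter and both were at least 2-fold higher after doxorubicin, while Cdh5, Kdr and Emcn were under 1 CPM in both oocyte groups. Its part in the Eif3b difference was not tested. These are descriptions across cells that share a preparation. In the other eIF3 genes the oocyte ratios were small, such as Eif3k at 0.32 and Eif3e at 0.25. Eif3b exceeded Eif3a in every oocyte of both groups, without division by length. In granulosa cells Eif3b had medians of 160 CPM in controls and 380 after doxorubicin with overlapping ranges, and a log2 ratio of 0.47.

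Eif4e, which binds the cap, differed by less than 2-fold between the oocyte groups. Control oocytes ranged from 273 to 429 CPM around 333 and doxorubicin oocytes from 291 to 814 around 461. Of the doxorubicin oocytes 9 of 16 lay above all controls, and the log2 ratio was 0.36 (0.30 to 0.40). The highest was doxorubicin oocyte 9, which was also highest in granulosa markers, and without oocytes at 200 CPM or more of those markers the ratio was 0.21. Eif4e2 lay the other way, with 6 of 16 doxorubicin oocytes below all controls and a ratio of −0.22. The sum of the 4 cap-binding genes had a median of 494 CPM in control oocytes (403 to 542) and of 570 in doxorubicin oocytes (410 to 939).

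The eIF2 branch was nearly level between the oocyte groups. The 3 eIF2 genes had a median log2 ratio of −0.01 and the 5 eIF2B genes of 0.04. Among the kinases, Eif2ak1 stood at 205 CPM in the median control oocyte and 206 in the median doxorubicin oocyte. Eif2ak3 was at 21.6 and 11.4 CPM in the median, with 14 of 16 doxorubicin oocytes holding at least 5 reads, and its log2 ratio was −0.58 (−0.78 to −0.46). Without oocytes rich in granulosa markers it was −0.30. Eif2ak2 was under 5 CPM in both groups. Eif4ebp2 was at 6.19 and 9.76 CPM, a ratio of 0.66 (0.41 to 0.94), and 1.02 without the oocytes rich in granulosa markers. The repressor Eif4enif1 was at medians of 268 and 294 CPM.

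**Figure D5:**
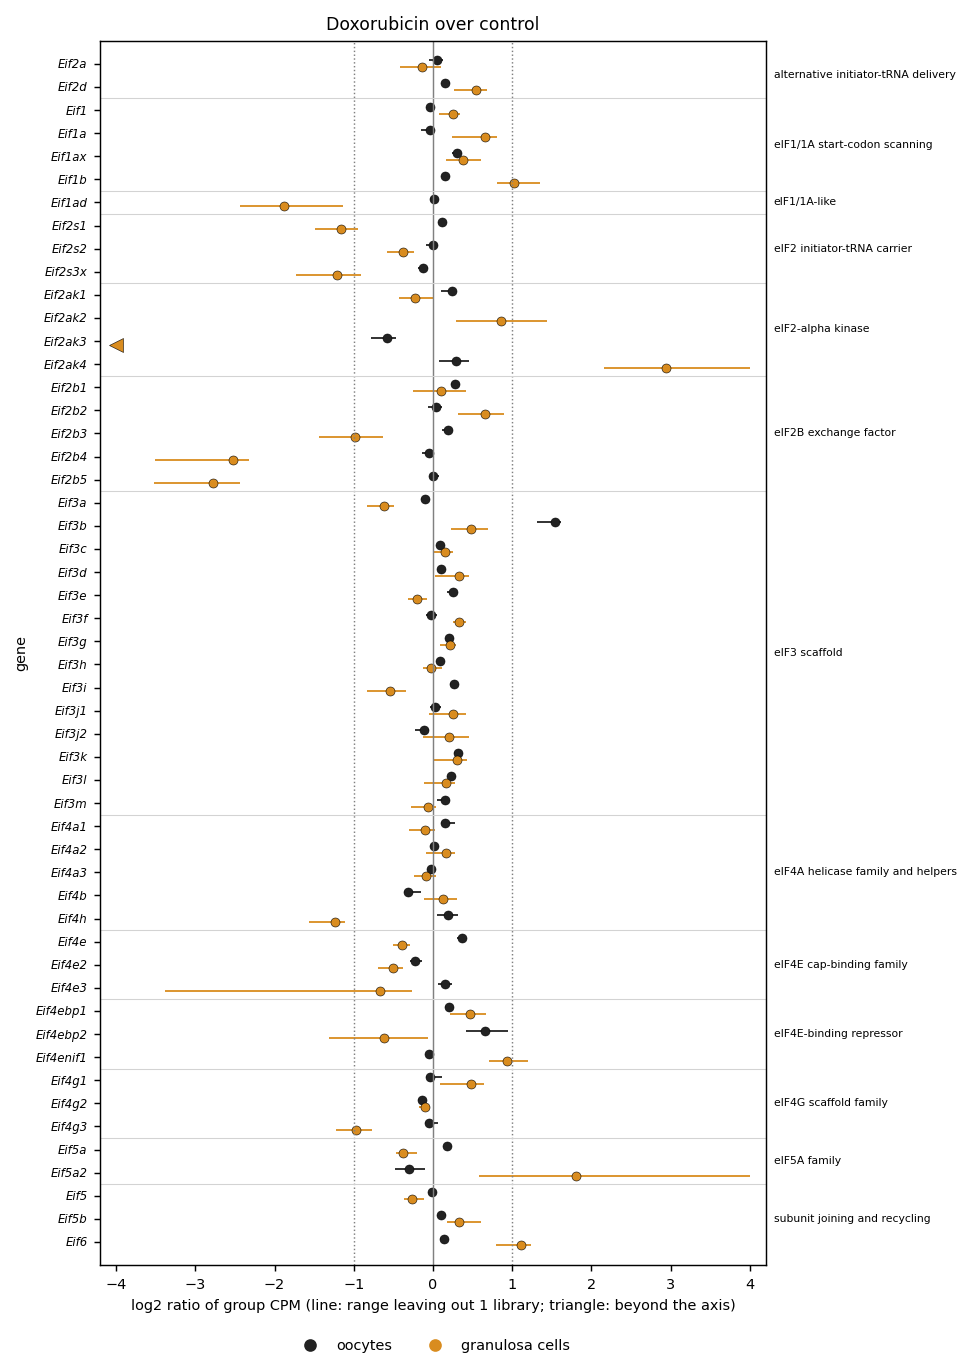
Log2 ratio of summed CPM after doxorubicin over control for the expressed genes, ordered by role, in oocytes (black) and granulosa cells (orange). Lines span the values on leaving out each library, cut at the axis limits, and a triangle marks a value beyond the axis. In oocytes the points lie close to 0 apart from Eif3b at 1.54, and in granulosa cells they run from Eif2ak3 beyond the axis to Eif2ak4 at 2.94.

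In granulosa cells doxorubicin was accompanied by wider differences than in oocytes, over all genes as well as over the initiation factors. The comparison called 4 of 52 genes higher and 7 lower, where 20.6% of all 12192 genes past the filter were higher and 20% lower. The shares of the initiation factors, 7.69% and 13.5%, were thus under the background. Of the calls, 1 higher and 5 lower ones held on leaving out any 1 library, against 10.0% and 9.73% of all genes. The median log2 ratio was 0.04 against −0.03. No gene of the 52 had groups without overlap, and neither did any of the 12192 genes. The number called higher was 1 without doxorubicin granulosa cell 6. Oocyte markers were higher in the doxorubicin granulosa libraries, as given above, and their part in these differences was not tested.

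The lower genes are taken by role. In eIF2B, 2 of 5 genes were called lower, while Eif2b1 was at 250 and 269 CPM and Eif2b2 at 111 and 175 CPM in the control and doxorubicin groups. Without the discordant libraries Eif2b1 was more than 2-fold lower, at 180 and 76.1 CPM and a log2 ratio of −1.24. That of Eif2b2 was then 0.53. Eif2b5 had a control median of 15.5 CPM (0 to 578) and a doxorubicin median of 1.81 (0 to 71.0), with at least 5 reads in 10 of 16 and 7 of 13 libraries. Its log2 ratio was −2.78, with −2.43 without control granulosa cell 14 and −3.52 without doxorubicin granulosa cell 13. It was −1.33 without the discordant libraries. Eif2b4, another subunit of eIF2B, had a control median of 102 CPM (0 to 372) and a doxorubicin median of 0.618 (0 to 147). Doxorubicin granulosa cell 2 held 53.4% of its reads in that group. The log2 ratio of Eif2b4 was −2.52 (−2.32 at the smallest), −3.51 without that library, and −2.31 without discordant libraries.

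The eIF2 genes Eif2s1 and Eif2s3x were also called lower. Eif2s1 ranged from 21.4 to 513 CPM around 143 in controls and from 0 to 265 around 78.4 after doxorubicin, a log2 ratio of −1.16 that was −0.95 without control granulosa cell 2. Eif2s3x had medians of 51.7 and 0.109 CPM, a ratio of −1.21 that was −0.91 without the same library and −1.73 without doxorubicin granulosa cell 15. Neither stayed at least 2-fold lower when discordant libraries were left out, where the ratios were −0.32 and −0.05. In libraries with at least 5000 CPM of granulosa markers, 7 control and 5 doxorubicin ones, they were −0.52 and 0.05. Across the 13 doxorubicin granulosa libraries the rho with the oocyte marker sum was −0.58 for Eif2s1 and −0.62 for Eif2s3x.

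Of the kinases, Eif2ak3 was at least 379-fold lower after doxorubicin against a floor of 3 reads in the group. Without control granulosa cell 3 this log2 bound went from −8.57 to −6.74, and it was −6.03 without the discordant libraries. At least 5 reads were present in the 2 control libraries named above and in none of the 13 doxorubicin libraries. Eif2ak4 was called higher, at 2.94, with 2.16 without doxorubicin granulosa cell 1 and 4.15 without control granulosa cell 5. Its doxorubicin reads came mainly from number 1 at 725 CPM and number 14 at 471 CPM, while the doxorubicin median was 0.104 CPM against 1.96 in controls. The difference of the cells' medians was −1.39, in the opposite direction, and the ratio of sums was 2.93 without the discordant libraries. Eif2ak1 had medians of 21.3 and 42.4 CPM and Eif2ak2 of 1.27 and 0.0937 CPM.

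Eif4h was called lower at −1.23 (−1.57 to −1.11), from a median of 328 to 72.6 CPM, and was −0.48 without discordant libraries. Eif1ad, an eIF1A-like gene, was called lower at −1.88, and −1.14 without control granulosa cell 3, which held 44.4% of the control reads. It was −1.10 without the discordant libraries. Eif1b was called higher, from a median of 124 to 234 CPM, at 1.03 (0.81 to 1.35), and was 1.04 without discordant libraries. Eif6 was called higher at 1.11 (0.79 to 1.24), from a median of 210 to 313 CPM. Without discordant libraries it was −0.36, and across the doxorubicin granulosa cells its rho with the oocyte marker sum was 0.82. Eif5a2 was called higher at 1.81, and 0.58 without doxorubicin granulosa cell 6, which held 60.6% of the reads. It was 5.05 without control granulosa cell 11 and 0.68 without the discordant libraries.

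Genes of initiation outside the Eif names were taken from a list of 21 partners. Of these, 20 passed the filter, with 5 higher and 4 lower in the oocytes of the control cell types where 29.0% and 31.3% of all genes were called. None was called between the oocyte groups, where 6.31% and 2.45% of all genes were. Those higher were Pabpc4 at 3.62, Paip2b at 2.10, Mknk1 at 1.74, Pdcd4 at 1.2 and Dhx29 at 1.16. Pabpc4 encodes a poly(A)-binding protein and Paip2b a protein that restrains poly(A)-binding protein. Mknk1 is a kinase of eIF4E, Pdcd4 an inhibitor of eIF4A and Dhx29 a helicase of the small subunit. The phosphatase subunits that reverse eIF2 alpha phosphorylation lay lower in oocytes, Ppp1r15b at −2.61 and Ppp1r15a at −1.42 (−1.53 to −1.15), as did Mcts1 at −1.36 and Ddx3x at −1.02. Without control granulosa cell 3 Ppp1r15b was at −1.23, without number 2 Mcts1 was at −0.999, and without number 7 Ddx3x was at −0.92. Paip2b was at 4.44 without control granulosa cell 6. After doxorubicin 4 partners were higher and 3 lower in oocytes than in granulosa cells, against 27.6% and 28.2% of all genes. The oocyte poly(A)-binding paralog Pabpc1l was at 0.503 CPM in doxorubicin oocytes and had no read in the other 3 groups. Between the granulosa groups, where 20.6% of all genes were higher and 20% lower, 2 partners were higher, Pabpc4 at 1.82 (1.14 to 2.32) and Paip2b at 1.79, and 2 lower, Mknk1 at −2.04 (−2.74 to −1.38) and Ncbp1, a nuclear cap-binding protein, at −1.44. Of the 10 elongation and release factors found, 1 was called higher in oocytes in controls and after doxorubicin, Gspt2, a release factor, at 1.16 and 2.97, and it was the 1 called lower between the granulosa groups, at −2.27. Its control value was 0.97 without control oocyte 16, and without doxorubicin granulosa cell 2 that group was at or under the floor of 3 reads. The ratios of the partners and of the elongation and release factors were not computed without the discordant libraries. Oocyte markers were higher in the doxorubicin granulosa libraries, and their part in the Pabpc4 and Paip2b differences between the granulosa groups was not tested.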

How the data were processed

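The authors deposited their estimated counts in 1 table of genes by cells. Of the values above 0, 34% carry decimals. Per the submitters' processing notes, the build was mm10 and the tools listed, without roles, were Partek, Bowtie2, HISAT2 and DESeq2. Per the labels' protocols, libraries came from SMART-seq cDNA of single cells, and all carry 1 batch label. Counts were rounded, added up within a group and scaled to its total as CPM. Ratios have exact conditional binomial intervals, CPM exact Poisson intervals and shares of cells exact binomial intervals, at 95%. A group under 3 counts was set to 3. No test across groups was made, since each group counts as 1 sample.

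The genes and lists (oocyte, granulosa, stroma, endothelium and blood markers, initiation partners, elongation and release factors) were chosen with earlier results of these data known. Named are a panel of 32 genes wherever a result turns on one, up to 8 calls per direction ranked by the smallest ratio on leaving out each library, genes under 5 CPM in all groups, and genes that differ in direction between the cell types. In control oocytes the median sum of stroma markers was 26.4 CPM and of endothelium markers 4.56 CPM, against 815 and 0.726 CPM in control granulosa cells. That of blood markers was 1.79 and 14.7 CPM. GENCODE M21 (GRCm38) held 54 of the 56 genes, and its transcripts gave lengths, shared 50-base windows and overlaps. RefSeq gave promoters.

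On simulated data, in which 200 of the 23927 genes were given a log2 change of 2, the scripts were tested for each comparison. They returned medians of 2.0 and −2.0 for the control cell types and 1.99 and −2.01 between the oocyte groups. Simulated libraries of a group shared 1 rate per gene and differed by counting error only. The spread between real cells was therefore not part of this check. Alternatives were a mean of CPM with equal weight per cell, a difference of median log2(CPM + 1) over cells, edgeR TMM factors, DESeq2 size factors, other filters on low values, leaving out each library or doxorubicin oocyte 4, and leaving out libraries by markers of their own or of the other cell type. Python 3.11.15, numpy 2.4.6, pandas 2.3.3, scipy 1.17.1, matplotlib 3.10.9, R 4.3.3, edgeR 4.0.16 and DESeq2 1.42.0 were used.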

Additional observations from a re-analysis of the deposited data

Results flagged for a closer look

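For 10 genes the doxorubicin over control ratio kept opposite signs in oocytes and granulosa cells on leaving out any 1 library. The difference between the cell types was not tested for any of them, and 9 of the 10 lay above 0 in oocytes and below 0 in granulosa cells. The share of all genes under the same rule is not given, so these counts have no background beside them. Eif2b3 was at 0.18 in oocytes and −0.99 in granulosa cells on the log2 scale, and Eif2s1 at 0.12 and −1.16. Eif3e was at 0.25 and −0.20 and Eif3i at 0.26 and −0.54. The cap-binding genes Eif4e and Eif4e3 were at 0.36 and −0.39 and at 0.15 and −0.67, and 85.8% of the Eif4e3 reads of doxorubicin granulosa cells came from number 1. The repressor Eif4ebp2 was at 0.66 and −0.62. The helicase helper Eif4h was at 0.19 and −1.23 and Eif5a at 0.17 and −0.38. Eif5a2 lay the other way, at −0.31 in oocytes and 1.81 in granulosa cells. Without granulosa libraries with more oocyte than granulosa markers, the granulosa ratio of Eif2b3 was −0.07, that of Eif2s1 −0.32 and that of Eif4h −0.48. Those of Eif3i, Eif4e and Eif4e3 were −0.56, −0.12 and −1.40, and that of Eif5a2 was 0.68. Those of Eif3e, Eif4ebp2 and Eif5a were 0.71, 0.25 and 0.004, so these genes no longer differed in sign between the cell types.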

How the results depend on the processing

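No paired analysis was possible because the cells of different groups share only a running number and no animal is named. A ratio counted as reversed only if it was at least 2-fold in the main setting and changed sign, so smaller ratios could not count. Sign changes of smaller ratios, such as that of Eif3e without discordant libraries, are therefore not among the reversed values. With TMM and DESeq2 factors, which lay between 0.98 and 1.02, none of 151 values each reversed by this rule. None of 4604 values did on leaving out 1 library. On leaving out each library, genes called higher and lower ranged from 10 to 12 and from 5 to 7 between the control cell types, and from 13 to 15 and from 3 to 4 between the doxorubicin cell types. Between the oocyte groups 1 was called higher and 0 lower throughout, and between the granulosa groups 1 to 5 and 6 to 9, the lowest, 1, without doxorubicin granulosa cell 6. With the cells' medians, 18 genes were higher in the oocytes of the control cell types (11 from summed reads), 23 were higher and 2 lower after doxorubicin (14 and 4), and 0 were higher between the oocyte groups. Without discordant libraries 17 were higher in control oocytes. Between the oocyte groups 2 were higher at a filter of 1 CPM (Eif3b and Eif2ak2), 4 higher and 1 lower without a filter, and 2 higher (Eif3b and Eif4ebp2) without oocytes of at least 200 CPM of granulosa markers, or of granulosa or stroma markers. The shares of all genes were not computed under these alternatives. Their counts therefore have no background beside them and cannot be set against that of the main setting. The reversed values were Eif4ebp2 between control cell types at 2.52, Eif2ak4 between doxorubicin cell types at 4.46 and between granulosa groups at −1.39, all with the cells' medians. Between granulosa groups Eif6 was at −0.36 without discordant libraries and −0.12 with at least 5000 CPM of granulosa markers, where Eif2s3x was at 0.0548. The cause was not tested. Shared sequence limits Eif3j1, Eif3j2 and Eif4ebp3, each with over 50% of windows shared, and less so Eif3d (42.1%), Eif2s3x (36.2%), Eif4a1 (33.3%) and Eif1 (31.6%), and the 13 to 16 libraries of a group limit shares of cells.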

Other observations

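Within doxorubicin oocytes, Eif1a, Eif2s1 and Eif2b5 ran against the oocyte marker sum, with a Spearman rho of −0.75, −0.61 and −0.60 over 16 libraries. Eif4enif1 and Eif6 ran with that sum, at 0.51 and 0.48, and Eif2b1, Eif4h, Eif2s3x and Eif2ak4 lay between −0.08 and 0.15. In control oocytes Eif1a, Eif2s1 and Eif2b5 were at 0.01, 0.04 and −0.31, and Eif4enif1 and Eif6 at −0.04 and 0.24. In doxorubicin granulosa cells, over 13 libraries, Eif2b1 had a rho of 0.72 with that sum and Eif4h of −0.73. The points share a preparation and are proportions of the same reads, so these values are descriptions.

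Paip2b, whose product restrains poly(A)-binding protein, was at 21.1 CPM in control oocytes and 35.8 CPM in doxorubicin oocytes, a log2 ratio of 0.76 (0.62 to 0.91), and 6 of 16 doxorubicin oocytes lay above all controls.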
